A study of Arabidopsis thaliana with 4 samples.

Results

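COR15A, COR15B, COR47 and LTI30 are Arabidopsis genes for protective proteins that plants accumulate in the cold and under water loss. They were picked by name, as the probe sets whose single annotated gene is 1 of these 4. Each has 1 probe set, so the group is 4 probe sets of the 22746 that remain after the array's controls are left out, and of the 13513 that carry a single gene.

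RNA came from shoots of plants with bHLH122 overexpression in the Col-0 background (2 arrays) and from shoots of wild-type Col-0 (2 arrays). bHLH122 belongs to the helix-loop-helix family of transcription factors. Seeds had 96 h of stratification, seedlings 1 week on MS medium and plants 2 weeks in soil. The labels give no cold, drought or abscisic acid treatment, so the shoots are called unstressed here. Whether they were free of stress was not tested. The overexpressor arrays are described as independent lines, although both titles carry line number 18. The labels give neither the promoter of the transgene nor whether the wild-type samples were grown separately, so the spread behind each p-value may be technical.

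COR15A and COR15B are small hydrophilic proteins of the chloroplast stroma that stabilise membranes when freezing draws water out of the cell. COR47 and LTI30 are dehydrins, late embryogenesis abundant (LEA) proteins that stay unfolded in solution and bind membranes or other proteins as cells dry. Their genes are textbook outputs of the cold-induced CBF transcription factors, which bind C-repeat elements in the promoters, and of abscisic acid, the hormone of water stress, acting through bZIP factors.

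The arrays had median signals of 40.8 and 40.2 in the overexpressors and 39.2 and 40.0 in wild type, on the linear scale of the deposited values. With 2 arrays a group, precision is limited by their number. Leaf genes were bright on all 4 arrays. In the limma fit given below, 3 of 4 measured leaf markers passed the adjusted threshold as higher in the overexpressors. Over all probe sets 12.2% were higher, and of those with a mean log2 signal of 4 or more 35.0% passed in either direction. The other leaf marker, LHCB4.1, had a log2 difference of 0.11 and did not pass. The 1 measured root marker, EXPA7, lay between 10.8 and 13.7 on every array, close to the lower quartile. The 24 probe sets for poly-A control RNA had a median log2 difference of -0.59, overexpressor minus wild type, and all 24 were lower on average. The 18 hybridization controls were all lower too, with a median of -0.25, close in size to the differences of COR47 and COR15B given below. Log2 differences between 3′ and 5′ probe sets of the array's RNA quality controls overlapped between groups for actin and ubiquitin. For GAPDH they were 0.0729 and 0.125 in the overexpressors, against 0.144 and 0.245 in wild type. The part of these differences in the results below was not tested. In whole shoots, fewer cells of a type and less RNA per cell cannot be told apart.

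All 4 genes gave signal in unstressed shoots of both genotypes, and none differed by as much as 2-fold. COR15B was lower in the overexpressors, at 0.788 times the wild-type signal, and passed the threshold by a small margin. COR15A, COR47 and LTI30 did not pass. Each gene's array values were compared with limma across all 22746 probe sets, with p-values adjusted over all of them and a threshold of 0.05. In that fit 24.0% of all probe sets passed in either direction, 12.2% higher and 11.8% lower in the overexpressors. So 1 call among 4 genes is near the share seen over the whole array. All 4 genes had a mean log2 signal of 4 or more, and 35.0% of such probe sets passed.

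COR15A, a gene of the stromal pair, had signals of 3241 and 3379 on the overexpressor arrays, against 2977 and 3226 on the wild-type arrays. The groups did not overlap, but only just: the lower overexpressor array exceeded the higher wild-type array by 0.00673 on the log2 scale, while the wild-type arrays differed from each other by 0.12. The log2 difference was 0.09 (SE 0.10, 95% interval -0.15 to 0.34, limma adjusted p = 0.562). On the fold scale the interval runs from 0.903 to 1.26.

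COR15B, the neighbouring gene for the second stromal protein, had signals of 2216 and 2344 in the overexpressors, against 2947 and 2835 in wild type. Both overexpressor arrays lay below both wild-type arrays, and the nearest arrays of the groups were -0.27 apart on the log2 scale. Replicate 2 minus replicate 1 was smaller in size, 0.0811 in the overexpressors and -0.0556 in wild type. The log2 difference was -0.34 (SE 0.10, 95% interval -0.58 to -0.11, limma adjusted p = 0.0483). Leaving out any single array ended the call (limma adjusted p from 0.111 to 0.203), and so did quantile normalization (0.0775), ordinary statistics (0.137) and a fit to nuclear probe sets of 1 gene (0.0580). With a trend on gene length removed, the difference was -0.19 (limma adjusted p = 0.279).

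COR47, an acidic dehydrin, had signals of 1691 and 1924 in the overexpressors, against 2169 and 2119 in wild type. Both overexpressor arrays were again lower than both wild-type arrays, with -0.14 on the log2 scale between the nearest arrays of the groups. The overexpressor arrays differed from each other by 0.19, more than that gap. The log2 difference was -0.25 (SE 0.11, 95% interval -0.51 to 0.01, limma adjusted p = 0.152). It was -0.16 without overexpressor replicate 1. It passed in 1 setting, with an intensity trend and robust hyperparameters in limma (adjusted p = 0.0221).

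LTI30, a basic dehydrin also called XERO2, had signals of 176 and 198 in the overexpressors, against 172 and 168 in wild type. The overexpressor arrays were the higher ones, with a gap of only 0.0317 on the log2 scale between the groups and 0.17 between the overexpressor arrays themselves. The log2 difference was 0.14 (SE 0.11, 95% interval -0.12 to 0.39, limma adjusted p = 0.415). It was 0.05 without overexpressor replicate 2. With the trend on gene length removed it reached 0.46 (SE 0.12, limma adjusted p = 0.0362).

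**Figure D1:**
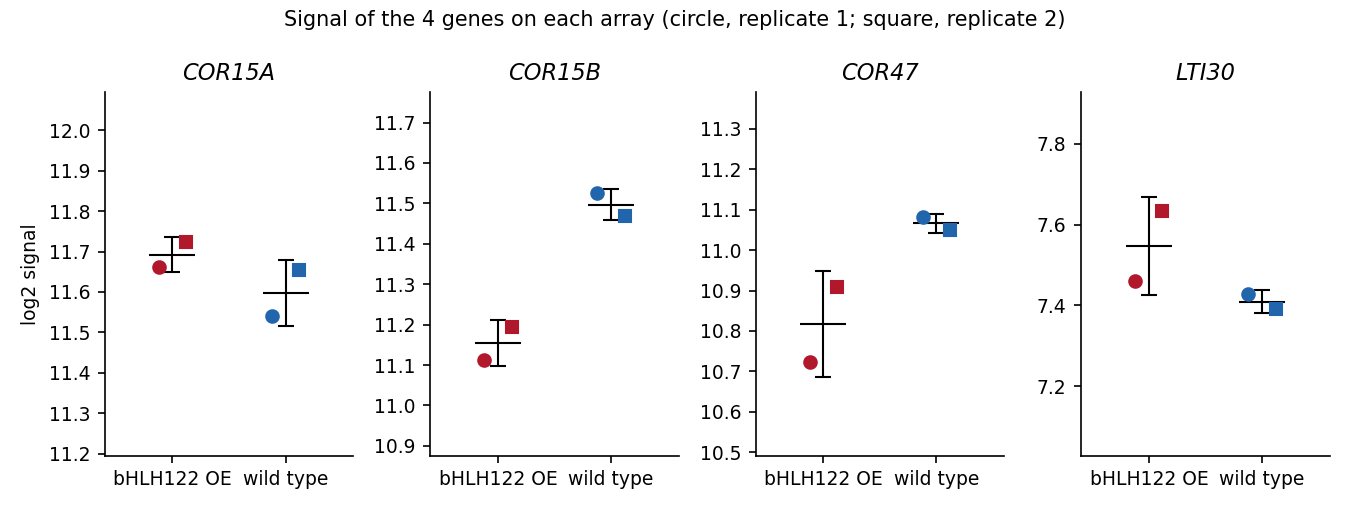
Log2 signal of COR15A, COR15B, COR47 and LTI30 on each array, overexpressors (red) left of wild type (blue); black bars are the mean and SD of 2 arrays, and each panel spans the same log2 range around the gene's own mean. COR15B shows the widest gap between the groups, while for COR15A and LTI30 the groups nearly touch.

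The 2 arrays of each genotype stood apart for all 4 genes, in 2 upward and in 2 downward. Over the whole array the groups stood apart for 61.2% of probe sets, so this is common. The differences also lay well inside the array's range: COR15B ranked at percentile 14.7 of all log2 differences, COR47 at 20.9, COR15A at 66.3 and LTI30 at 70.9.

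As basal levels, the probe set of COR15A lay at array percentiles 98.8 and 98.9 in the overexpressors and 98.5 and 98.7 in wild type. That of COR15B lay at 97.9 and 98.1 in the overexpressors and 98.5 and 98.4 in wild type. For COR47 the percentiles were 97.0 and 97.5 in the overexpressors, against 97.8 and 97.7 in wild type. LTI30 was nearer the middle of the array, at 76.1 and 78.2 in the overexpressors and 75.2 and 74.6 in wild type. Percentiles place a probe set among the others on its array. Probes differ in affinity, so they give no order of transcript abundance among the 4 genes.

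COR15A and COR15B lie next to each other in the TAIR10.1 gene order and encode closely related proteins, so their difference within an array was also compared between genotypes. Log2 COR15A minus log2 COR15B was 0.55 and 0.53 on the overexpressor arrays, against 0.01 and 0.19 on the wild-type arrays. The overexpressor values are close together and lie above both wild-type values. The means were 0.54 ± 0.01 and 0.10 ± 0.12 (SD, n = 2 each), which differ by 0.44, and a two-sided exact permutation test over arrays gave p = 0.333, the smallest that 2 arrays against 2 allow. The contrast stayed between 0.35 and 0.52 in the 8 settings tried, and was 0.43 with the length trend removed. Median centring and the restriction to nuclear probe sets of 1 gene could not change it, since both leave a difference within an array as it was. Neither probe set's identifier carries the letters with which the array's maker marks probe sets shared by several transcripts. Probe sequences were not analysed here, and some cross-hybridization between the related transcripts cannot be told apart from signal of each.

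The profiles of the 4 genes over the arrays did not group by protein type. After each gene's mean log2 signal was subtracted, the Euclidean distance over 4 arrays was 0.12 between the stromal COR15B and the dehydrin COR47, and 0.14 between the stromal COR15A and the dehydrin LTI30. The COR15 pair was 0.45 apart and the dehydrin pair 0.39 apart, with 0.37 between COR15A and COR47 and 0.48 between COR15B and LTI30. The closest pairs are those whose log2 differences share a sign, so the distances largely restate those differences. These distances describe 4 arrays and were not tested.

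Many other genes had profiles as close. Among nuclear probe sets of similar brightness, the nearest to COR15A were APA1, an aspartic protease gene (distance 0.0312), and AT3G58610 (0.0394). Nearest to COR15B were AT1G76200 (0.0429) and AT4G13170 (0.0445), to COR47 AT2G44310 (0.0665) and AT5G52840 (0.0673), and to LTI30 AT5G19090 (0.0102) and AT5G48960 (0.0218). Within a distance of 0.1 lay 13 of 230 candidates for COR15A, 21 of 299 for COR15B, 10 of 376 for COR47 and 62 of 2851 for LTI30.

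The genotype difference varied with gene length among brighter nuclear probe sets, where all 4 genes lie, and the 4 differ in length. Among nuclear probe sets above the median signal, those of genes up to 1000 bp had a median log2 difference of -0.40, with 50.3% lower and 2.66% higher in the overexpressors. LTI30, with 969 bp including introns, belongs to that class and had 0.14. In the class over 1000 and up to 2000 bp, which holds COR15A (1890 bp) and COR15B (1841 bp), the median was -0.22, and 32.0% were lower and 6.25% higher. COR15B, at -0.34, lay between that median and the class's lower quartile of -0.47, and COR15A, at 0.09, lay above its upper quartile of 0.01. COR47, with 2465 bp, lies in a class with a median of -0.05 and a lower quartile of -0.29, and had -0.25. With the trend removed, COR15A had 0.24, COR15B -0.19, COR47 -0.19 and LTI30 0.46, of which LTI30 passed.

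**Figure D2:**
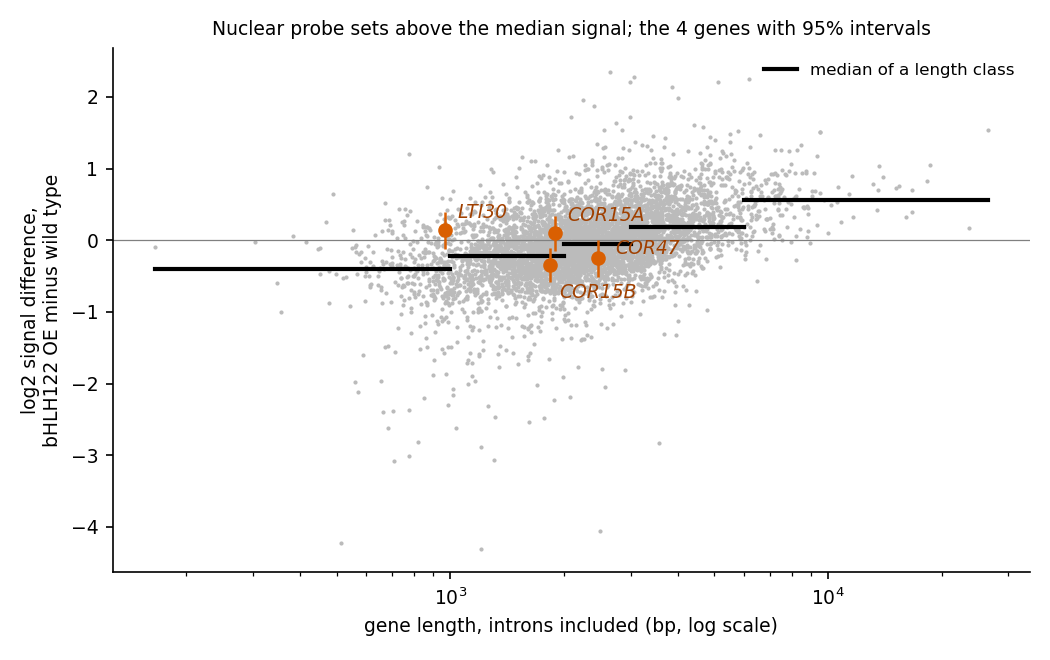
Log2 signal difference, overexpressor minus wild type, against gene length (log axis) for nuclear probe sets above the median signal (grey), with class medians as black lines and the 4 genes in orange with 95% intervals. LTI30 and COR15A lie above the median of their length class, and COR15B and COR47 lie below theirs.

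The rest of the cold and dehydration programme was followed in 9 lists with 170 genes. Of these, 35 genes have a named probe set (36 probe sets, the 4 genes included), and 2 were higher, 10 lower and 24 did not pass, beside the 12.2% higher and 11.8% lower over all probe sets. Their median log2 difference was -0.14, against -0.02 over all probe sets. Of the 36 probe sets, 20 had mean log2 signals under 4, of which 1 passed, and 11 of the 16 brighter ones passed. Over all probe sets 3.81% of those under 4 and 35.0% of those at 4 or more passed. Among nuclear probe sets above the median signal, 50.3% were lower up to 1000 bp and 32.0% over 1000 to 2000 bp. The part of gene length in the list counts was not tested. The CBF factors, the COR413 and RCI2 membrane proteins, the general dehydration response and the raffinose and starch lists are not analysed here.

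Among dehydrins, 6 of 10 listed genes were measured, and 1 rose while 5 did not pass, where 12.2% of all probe sets rose. HIRD11 (AT1G54410), a small dehydrin known to bind metal ions, had signals of 3694 and 3264 in the overexpressors, against 2028 and 1989 in wild type. Both overexpressor arrays were well above wild type, with a log2 difference of 0.79 (SE 0.11, limma adjusted p = 0.00477), which was 1.03 with the length trend removed. HIRD11, COR47 and LTI30 were the 3 measured dehydrins with a mean log2 signal of 4 or more. The dehydrin gene LEA (-0.04) and the listed loci AT4G38410 (0.09) and AT4G39130 (0.20) had mean log2 signals under 4, near or below the lower quartile of the arrays.

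Of 29 other genes listed as LEA proteins 21 were measured, and 6 fell, 1 rose and 14 did not pass, with a median log2 difference of -0.14. Over all probe sets 11.8% fell and 12.2% rose. Calls went with brightness, in the list and on the whole array. Of the 21 genes, 15 had mean log2 signals under 4, of which 1 passed, and all 6 brighter ones passed. Over all probe sets 3.81% of those under 4 and 35.0% of those at 4 or more passed. LEA4-5, of the LEA group 4 family, had signals of 34.3 and 31.7 in the overexpressors, against 56.6 and 64.3 in wild type (log2 difference -0.87, SE 0.11, limma adjusted p = 0.00422). DI21, a drought-induced gene, had 161 and 149 in the overexpressors, against 284 and 274 in wild type (-0.85, SE 0.10, limma adjusted p = 0.00339). For both genes the overexpressor arrays lay far below the wild-type arrays. The locus AT3G02480 had 26.8 and 26.3 in the overexpressors, against 57.4 and 55.2 in wild type (-1.08, SE 0.09). AT2G46140, also named LEA27 (-0.77), AT2G03740 (-0.71) and AT2G03850 (-0.55) also fell. AT2G44060, also named LEA26, rose, with 1048 and 1108 in the overexpressors against 806.003 and 805.893 in wild type (0.42, SE 0.10, limma adjusted p = 0.0247).

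The 6 LEA genes that fell are 817 to 1647 bp long. With the length trend removed they still passed in limma, where 2101 of 13367 probe sets passed, 1084 of them higher. The log2 differences were then -0.47 for LEA4-5 (from -0.87), -0.57 for DI21 (from -0.85) and -0.63 for AT3G02480 (from -1.08). They were -0.57 for LEA27 (from -0.77), -0.62 for AT2G03740 (from -0.71) and -0.45 for AT2G03850 (from -0.55). AT2G03850 passed by a small margin (limma adjusted p = 0.0496). LEA26 did not pass with any single array left out (limma adjusted p from 0.0693 to 0.112). AT2G03850 lost it in 3 of the 4 such fits, those without overexpressor replicate 1 (-0.38), wild-type replicate 1 (-0.45) and wild-type replicate 2 (-0.65), and LEA27 without wild-type replicate 2 (-0.61). The 14 that did not pass ran from -0.23 for AtLEA4-1 to 0.33 for AT2G42560, with LEA18 (-0.14), M10 (-0.12), M17 (0.16), AT3G15670 (-0.13), AT5G44310 (-0.16), AT2G23110 (-0.14), AT3G17520 (-0.17), AT2G18340 (0.20), AT4G21020 (0.03), AT4G36600 (0.07), AT3G53770 (0.02) and AT1G72100 (-0.07) between them.

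**Figure D3:**
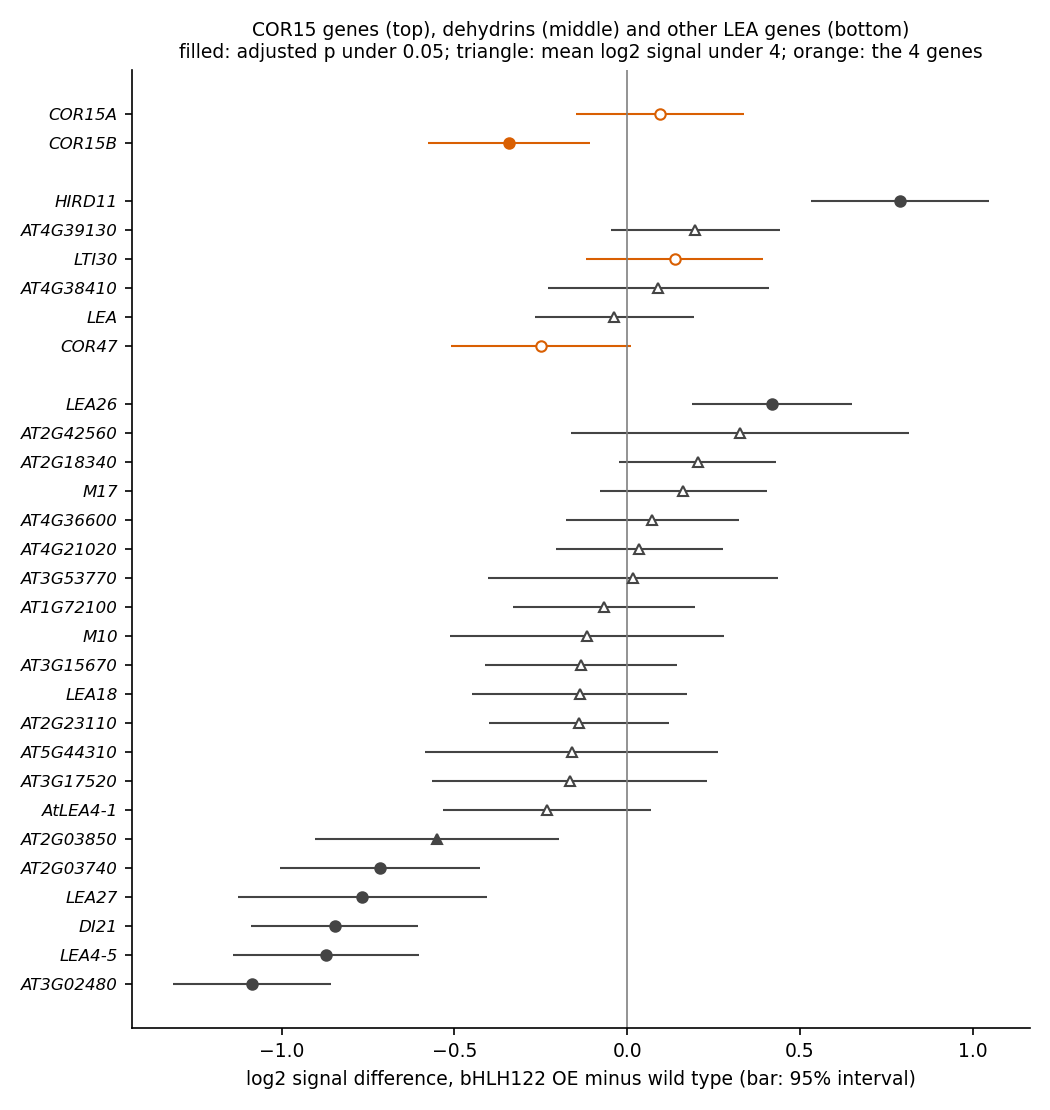
Log2 signal difference, overexpressor minus wild type, with 95% intervals for the COR15 genes, dehydrins and other genes listed as LEA proteins; filled symbols passed the adjusted threshold, triangles have a mean log2 signal under 4, and the 4 genes are orange. The filled symbols lie on both sides of 0, with HIRD11 highest at 0.79 and AT3G02480 lowest at -1.08.

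Among the other measured cold genes, COR27, a cold-regulated gene linked to the circadian clock, had signals of 187 and 162 in the overexpressors, against 393 and 371 in wild type. The groups were far apart, with a log2 difference of -1.13 (SE 0.11, limma adjusted p = 0.00202), which was -1.04 with the length trend removed. The listed locus AT4G33980 fell, with a log2 difference of -0.50 (limma adjusted p = 0.0166), but not past the threshold without overexpressor replicate 1 (-0.52) or 2 (-0.49) or wild-type replicate 2 (-0.43). TIL, the temperature-induced lipocalin, had -0.06 and did not pass. STZ, a cold- and salt-induced zinc finger repressor, fell by 3.06 (SE 0.11), with 100.4 and 91.0 in the overexpressors against 770.3 and 827 in wild type. The SUMO ligase SIZ1, which modifies a regulator of the CBF genes, had -0.23 and 0.29 on its 2 probe sets. Their mean log2 signals were 3.46 and 7.11, so the first was dim. UGT71B6, a glucosyltransferase acting on abscisic acid, had -0.25 and was also dim (mean log2 signal 3.64). Neither passed.

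The results for the 4 genes were repeated in 13 other settings. COR15A did not pass in any of them (limma adjusted p from 0.175 to 0.883), COR15B passed in 4, COR47 in 1 and LTI30 in 1. No gene changed sign. Settings that change only the variance model, the block or the probe sets tested leave the difference as it was, so the sign could not change there.

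**Figure D4:**
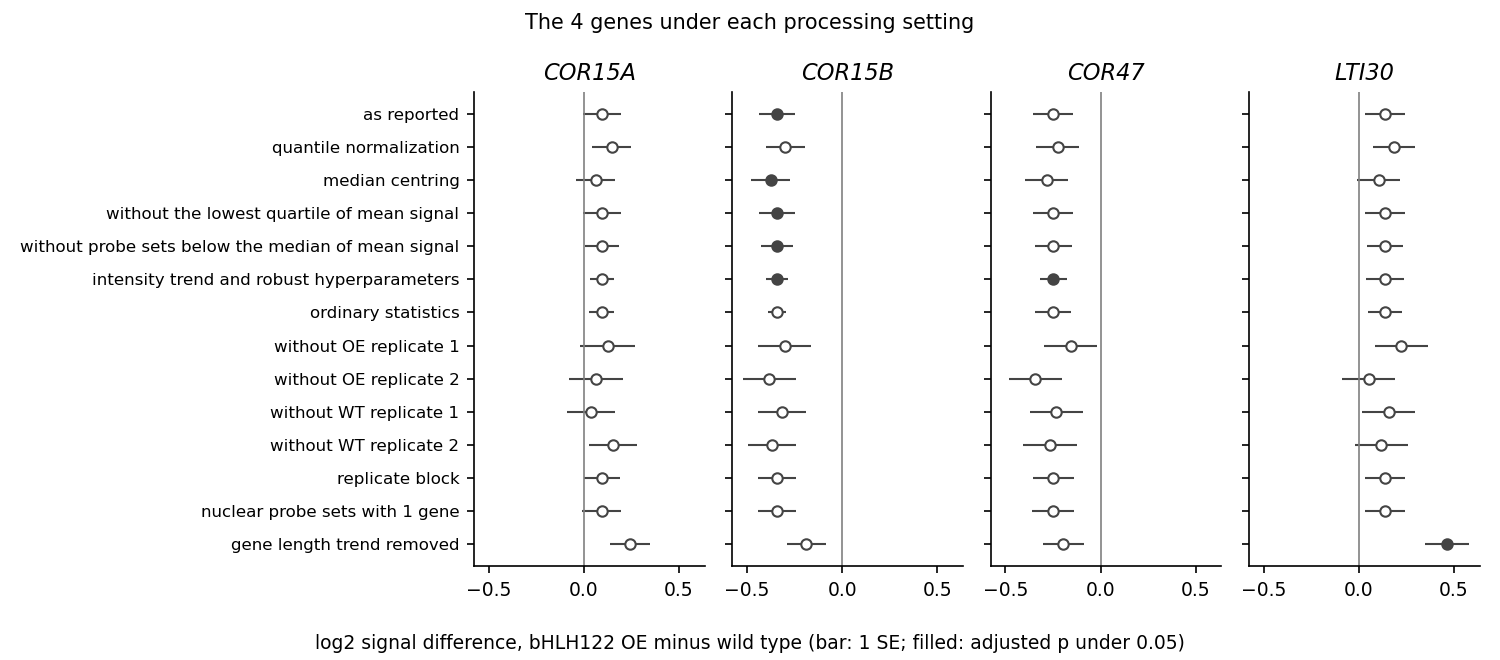
Log2 signal difference, overexpressor minus wild type, with 1 SE for the 4 genes under each setting; filled points passed the adjusted threshold. COR15B stays between -0.38 and -0.19 and COR15A between 0.04 and 0.24, and LTI30 passed where the length trend was removed.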

How the data were processed

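Biotin-labelled cRNA from shoots was hybridized to 4 Affymetrix arrays, per the labels' protocols. The authors deposited linear signal intensities, 1 value for each probe set on each array, made with RMA per the submitters' processing notes. How RMA's values came back to a linear scale, and with which version, is not given in the sources used here. Detection calls were not used. Deposited intensities were log2-transformed, with no further normalization.

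Of 22810 probe sets, 64 controls were left out. The platform annotation gives 1 gene for 13513, several for 503 and none for 8730. Of the 13513, 13436 matched the TAIR10.1 gene table by Entrez identifier, which gave current symbols, gene order and lengths. The comparison used limma 3.58.1 under R 4.3.3 (lmFit with eBayes, two-sided, Benjamini-Hochberg adjustment over 22746 probe sets, 2 residual and 4.24 prior degrees of freedom). The fit was checked on simulated data with variances drawn from limma's own fitted model. That check cannot show how far these arrays depart from the model. To remove the length trend, a lowess curve (span 0.5, in 4 bins of mean signal) was subtracted per array over 13367 nuclear probe sets.

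The genes, lists and settings were chosen with earlier results of these data known. Named were the 4 genes, all measured dehydrin and LEA genes, list members past the threshold, nearest measured neighbours, and per gene the 2 probe sets with the closest centred profile within 1 log2 unit of brightness. List members that did not pass were also named where their list had 3 or fewer measured genes. No protein or promoter sequence is shown. The bHLH122 transcript is not analysed here, so the labels could not be checked on it.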

Additional observations from a re-analysis of the deposited data

How the results depend on the processing

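COR15B did not pass after quantile normalization (-0.30), with ordinary statistics (-0.34), with the replicate block (-0.34), for nuclear probe sets of 1 gene (-0.34), without the length trend (-0.19) or with 1 array left out (-0.38 to -0.30). COR47 passed with an intensity trend (-0.25) and LTI30 with the length trend removed (0.46). The count of 5460 probe sets moved to 5 with ordinary statistics, 3318 to 3586 with 1 array left out, 3612 with the replicate block, 2240 with a threshold of 0.01, 776 with at least 2-fold changes, 2101 without the length trend and 2650 for nuclear probe sets of 1 gene. In the cold and dehydration lists, ordinary statistics without limma's moderation gave 0 higher and 0 lower, although 11 of 36 probe sets then had unadjusted p under 0.05, against 12 with moderation. With 1 array left out, where the lone array takes its spread from the other group, 1 to 2 were higher and 6 to 9 lower, and with the replicate block 1 was higher and 7 lower, with LEA26, LEA27 and AT2G03850 among the calls lost (adjusted p = 0.0580, 0.0565 and 0.0968). A stricter threshold and a 2-fold cut lower the count by construction, and fewer arrays and unshared variance leave less information on the spread. The length trend was removed over 13367 nuclear probe sets of 1 gene only, so its 2101 compares with 2650 and not with 5460. Fewer probe sets did not always lower the count. The count was 5940 without the lowest quartile of mean signal and 5605 without probe sets below the median. For these and the other settings the cause was not tested. Same-numbered arrays shared little deviation from their group means (correlation -0.0410 across probe sets), which cannot show whether they were handled together. With median centring 2575 probe sets were higher and 3107 lower. For the 11 list genes besides the 4 that had passed, 115 values kept the call and 25 lost it. None changed sign, which could not happen in the settings that leave the difference as it was. List genes that had not passed were not followed singly. Without detection calls, signal above background is unknown, which limits the dim LEA genes most.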

Other observations

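The measured neighbours of the 4 genes in the TAIR10.1 order gave these values. AT1G20430, the gene before COR47, had signals of 166 and 149 in the overexpressors, against 263 and 247 in wild type. It fell by 0.70 on the log2 scale (SE 0.11), beside -0.25 for COR47. With 899 bp it belongs to the length class up to 1000 bp. Among nuclear probe sets above the median signal, that class had a median of -0.40, with 50.3% lower. The class of COR47, over 2000 to 3000 bp, had a median of -0.05, with 16.6% lower. The difference between the 2 genes was not tested. On the other side of COR47 the adjacent dehydrin gene ERD10 is not analysed here, and the next measured gene, AT1G20480, had a log2 difference of 0.04. AT2G42520, the gene before COR15B, had -0.17 (SE 0.14), with 102 and 134 in the overexpressors against 133 and 131 in wild type. AT2G42560, beyond COR15A with 1 gene between them, had 0.33 (SE 0.20), and its overexpressor arrays differed from each other by 0.62. The measured genes on either side of LTI30 were AT3G50940 (-0.18) and AT3G50990 (0.10), both below the lower quartile of signal on every array, while the adjacent dehydrin gene XERO1 is not analysed here. None of these besides AT1G20430 passed in limma.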
